A study of Homo sapiens with 6 samples.

Results

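The genes described here are 10 effectors of cyclic AMP: the catalytic and regulatory subunits of protein kinase A (PKA), PKA inhibitors, and the EPAC exchange factors. They are taken by gene name: PRKACA, PRKACB, PRKAR1A, PRKAR1B, PRKAR2A, PRKAR2B, PKIA, PKIG, RAPGEF3 and RAPGEF4. All 10 were present among the 60671 named genes of the table, and all 10 passed the filter on low counts that left 16327 genes for testing. RNA was sequenced from 6 libraries, 2 for each of 3 days.

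The day 0 group was BJ cells, wild-type human foreskin fibroblasts of an established line, grown toward confluence in medium with serum on dishes coated with poly-D-lysine. The day 2 group, labelled FiN cells and induced neuron cells, had been kept in neuronal induction medium with 10 µM forskolin, which activates adenylyl cyclase and so raises cAMP. The day 5 group, with the same label, had moved at day 2 to neuronal maturation medium with 10 µM forskolin. Forskolin is withdrawn on day 5 in this protocol, and the labels do not say whether the cells were collected before or after that step. No cells given the neuronal media alone are part of these data, and the effects of forskolin, medium, serum and time cannot be told apart. Whether a day's pair of libraries stems from independent cultures is not stated, so each p-value reflects the spread of these libraries alone, which may be technical.

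In its resting form PKA is a tetramer of a pair of regulatory subunits holding a pair of catalytic subunits inactive. cAMP binds the regulatory subunits and frees the catalytic subunits, which phosphorylate many proteins, the transcription factor CREB among them. Regulatory subunits also dock the enzyme on A-kinase anchoring proteins (AKAPs), which place it near particular membranes and substrates. Free catalytic subunits can be held by small heat-stable inhibitors of the PKI family. EPAC proteins are a separate branch: cAMP opens them to load Rap GTPases, which act on cell adhesion, without any kinase.

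The library totals over named genes ran from 17599504 expected counts at day 5 to 27941919 at day 2. IGFBP5 alone took 10.7% of the counts in both day 5 libraries, against 0.355 to 0.380% in the other libraries. Levels are in CPM, counts divided by library sizes that TMM factors correct, and changes are relative to that scaling. By library totals alone the median gene moved from 0.00 to -0.18 log2 at day 2 against day 0 and from 0.04 to -0.16 at day 5 against day 0. All 10 fibroblast markers were detected in the labelled fibroblasts and later days, with summed levels of 18398 to 18758 CPM at day 0, 15434 to 15651 at day 2 and 26568 to 27049 at day 5. At day 0 the largest parts were COL1A2, VIM, COL1A1 and COL3A1, and at day 5 COL1A2 and COL3A1. COL1A2 went from 4996 and 5111 CPM at day 0 to 14194.6 and 14456.5 at day 5. COL3A1 (2513 and 2573 to 6394 and 6489) and PDGFRB (223 and 234 to 465 and 475) also rose. COL1A1 fell from 4206 and 4363 to 1047 and 1105 at day 2 and stood at 3676 and 3775 at day 5. LUM and FAP were highest at day 2 and lowest at day 5. DCN stood lower at day 5, from 1050.1 and 1038 CPM to 201 and 204, as did VIM, from 4845 and 4857 to 1458 and 1474. Likewise THY1 went from 417 and 436 to 104 in both, and S100A4 from 39.8 and 39.6 to 2.10 and 2.62. The label of induced neurons met few neuronal markers: of 12, STMN2 and ELAVL4 had 0 counts in all 6 libraries, only 5 passed the count filter, and the summed level, mostly TUBB3, was 252 to 261 CPM in fibroblasts, 155 to 162 CPM on day 2 and 112 to 115 CPM on day 5. SNAP25, a synaptic marker of the same list, went the other way, from 5.76 and 6.01 CPM in fibroblasts to 16.9 and 19.8 CPM on day 5. Smooth muscle markers, of which TAGLN is also made by fibroblasts, summed to 926 to 945 CPM at day 0, 269 to 278 at day 2 and 74.0 to 74.5 at day 5. Endothelial markers summed to 75.7 to 138 CPM (PECAM1 at most 0.540), immune markers to 45.5 to 134 CPM (PTPRC at most 0.109) and melanocyte markers to 19.4 to 54.6 CPM over the 6 libraries. Of the endothelial list, TEK held 69.0 to 79.1 CPM, and KDR went from 3.71 and 4.61 at day 0 to 63.4 and 60.1 at day 5. The immune sum was mostly CD68. In the melanocyte sum MITF was largest, from 42.1 and 41.1 CPM at day 0 to 12.4 and 9.77 at day 5, while PMEL rose from 1.85 and 1.58 to 7.38 and 9.39. Markers of keratinocytes summed to at most 0.601 CPM, and TYR (melanocytes) and CD3E (T cells) had 0 counts. The part of these markers in the results below was not tested.

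Promoter sequences from RefSeq (GRCh38.p14) are shown for members whose windows hold letters that CREB is known to bind. The core of PRKAR1B and 2 further cores of PRKAR1A are counted but not printed. A window ran from 250 bases before a transcription start to 50 bases after it, on the strand of the gene. Of the 10 members, 9 had windows, 29 in all. TGACGTCA, the full cAMP response element, which reads the same on both strands, lay in 1 of these 9 genes, PRKAR1A, against 2.25% of 27305 genes in the RefSeq table. Its core TGACG, on either strand and including the cores within full elements, lay in 5 of the 9 genes (PRKACA, PRKACB, PRKAR1A, PRKAR1B and PRKAR2A; 9 of 29 windows), against 24.6% of 35116 windows and 28.4% of genes. Several windows of 1 gene overlap, so windows are not independent. The 9 genes hold 29 windows and the 27305 genes 35116, so members have more windows per gene. Shares of genes are therefore not like for like. By window, the full element lay in 2 of 29 member windows (the same element in both) and in 1.85% of all windows. Each stretch below is 30 bases of reference sequence, 5′ to 3′ on the strand of the gene, with the match in capitals.
PRKAR1A, chr17:68512370-68512399, plus strand: gcgaggcgcatTGACGTCAgtagccgaacg
PRKACA, chr19:14117795-14117824, minus strand: ggcggcgctgagcCGTCAgtcagggcggcc
PRKACA, chr19:14117750-14117779, minus strand: cgggctgcgggggCGTCAcagacagcggca
PRKACB, chr1:84077936-84077965, plus strand: tcccgggcctgcgCGTCActtccggcgcgc
PRKAR2A, chr3:48847862-48847891, minus strand: ccgcggtggcgtgCGTCAcaaccaggacgc
The full element of PRKAR1A begins 2 bases after the start at 68512379 and 49 bases before the start at 68512430, and lies in an exon of the GENCODE annotation. The cores of PRKACA begin 49 and 4 bases before its start at 14117762, that of PRKACB 130 bases before 84078079, and that of PRKAR2A 4 bases before 48847874. PRKAR2B held neither motif in its only window. Its 194 bases ahead of the first GENCODE exon are shown for comparison, in lower case since nothing matched, with a GC content of 82.5%.
PRKAR2B, chr7:107044455-107044648, plus strand: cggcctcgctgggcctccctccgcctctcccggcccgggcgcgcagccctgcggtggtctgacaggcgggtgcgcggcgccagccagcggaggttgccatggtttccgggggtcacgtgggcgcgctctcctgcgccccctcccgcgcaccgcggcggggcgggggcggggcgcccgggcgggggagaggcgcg
A match is a description of letters and not a binding site, and the absence of one says only that these letters are not in the window.

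Day 2 was compared with day 0 for the first medium, day 5 with day 0 for the whole course, and day 5 with day 2 for the later medium. The 3 comparisons share libraries. Regulatory subunits PRKAR1A and PRKAR2B and the catalytic subunit PRKACB rose by day 2 and stayed above day 0 at day 5, while PRKACA, PRKAR1B, PKIG and RAPGEF3 fell. PKIA was called higher only in the comparisons with day 5, and RAPGEF4 rose at day 2 and then fell below its day 0 level. The call rule was an edgeR adjusted p under 0.05. At day 2 against day 0, 8 of 10 members were called where 66.8% of all tested genes were: 4 higher (background 33.4%) and 4 lower (33.4%). At day 5 against day 0, 10 of 10 were called (background 69.9%), 4 higher (35.8%) and 6 lower (34.1%). At day 5 against day 2, 7 of 10 were called (background 65.8%), 2 higher (32.1%) and 5 lower (33.7%). With most genes called, these counts are read against that background and not as a result about the members as a list. The median log2 fold change of the members was 0.07, -0.42 and -0.17 in the 3 comparisons, beside 0.00, 0.04 and 0.01 over all tested genes. In bulk RNA, fewer cells of a type and less RNA per cell cannot be told apart.

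Changes of more than 2-fold were tested against that size with glmTreat. At day 2 against day 0 only PRKAR2B passed, 1 of 10 members, where 12.5% of all genes did (6.99% higher and 5.54% lower). At day 5 against day 0 PRKAR1A, PRKAR2B and PKIA passed, all 3 higher, with a background of 20.1% (9.74% higher and 10.3% lower). At day 5 against day 2 only RAPGEF4 passed, and it was lower, with a background of 14.4% (6.41% higher and 7.96% lower).

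**Figure D1:**
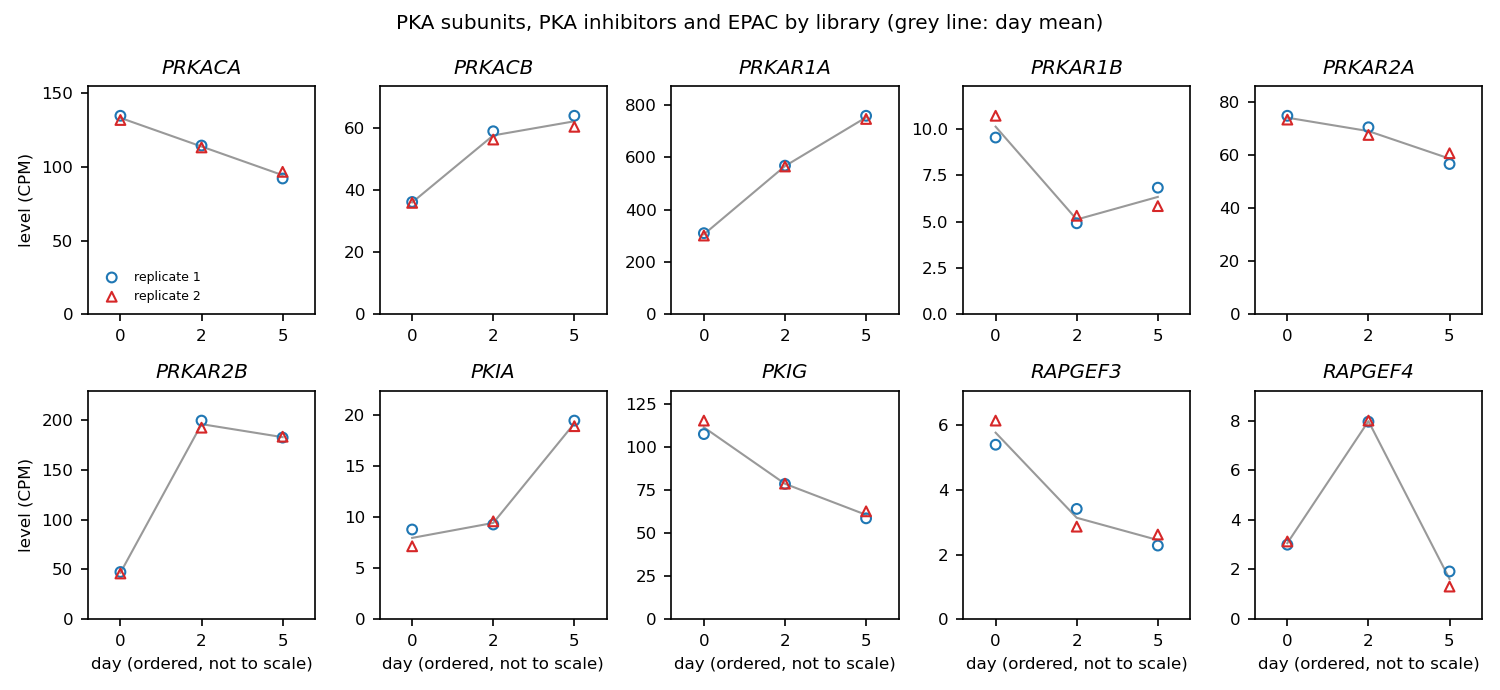
Level of each member in CPM (vertical axes, from 0, a scale for each gene) in the 6 libraries by day, with circles for replicate 1, triangles for replicate 2 and a grey line through the day means. PRKAR2B has a mean of 46.6 CPM on day 0 and of 196 and 183 CPM on the later days, and RAPGEF4 peaks at day 2.

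PRKAR1A (ENSG00000108946, chromosome 17 at 68511780 to 68551319 of GRCh38) encodes regulatory subunit RI alpha, the type I form found in most tissues. Fibroblast libraries held 309.8 and 301 CPM, day 2 libraries 568 and 565 CPM, and day 5 libraries 758 and 746 CPM. The days did not overlap, and each later day was higher than the one before. As for all 10 members in every comparison, both libraries of 1 day lay above both of the other, which 82.7, 84.5 and 82.4% of all tested genes also did. The rise over day 0 was 1.86-fold at day 2 (log2 fold change 0.89 ± 0.02, value ± SE, edgeR adjusted p = 1.4e-15) and 2.46-fold at day 5 (1.30 ± 0.02, edgeR adjusted p = 3.9e-18). Between day 2 and day 5 it rose a further 1.33-fold. At day 5 against day 0 it passed the test for more than 2-fold (glmTreat adjusted p = 5.7e-10), and at day 2 it did not.

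PRKAR2B (ENSG00000005249, chromosome 7 at 107044649 to 107161811) encodes regulatory subunit RII beta, a type II form prominent in brain and fat that binds AKAPs tightly. The 2 libraries of day 0 held 47.3 and 45.8 CPM, those of day 2 held 199 and 192 CPM, and those of day 5 held 182 and 183 CPM. Both later days lay far above day 0 and close to each other. The rise was 4.21-fold at day 2 (edgeR log2 fold change 2.07 ± 0.04, adjusted p = 1.7e-17) and 3.93-fold at day 5 (1.97 ± 0.04, edgeR adjusted p = 2.4e-17), and both passed the test for more than 2-fold (glmTreat adjusted p = 3.5e-14 and 8.1e-14). The step from day 2 to day 5 was small and called lower, at -0.10 ± 0.03 log2 (edgeR adjusted p = 0.0188). That call was lost with a stricter count filter (0.0774) and without day 2 replicate 1 (0.119) or either day 5 library (0.0569 and 0.0576); its p ran from 0.000892 to 0.119 over all alternatives.

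PRKAR2A (ENSG00000114302, chromosome 3 at 48744597 to 48847846) encodes RII alpha, the widely expressed type II subunit. Levels were 74.7 and 73.3 CPM in fibroblasts, 70.4 and 67.5 CPM on day 2, then 56.6 and 60.6 CPM on day 5. It was lowest on the last day, unlike PRKAR2B, the other type II gene. At day 5 it was 1.26-fold lower than at day 0 (edgeR log2 fold change -0.34 ± 0.05, adjusted p = 1.8e-05). At day 2 the difference from day 0 was -0.10 ± 0.05 and missed the threshold (edgeR adjusted p = 0.0689), but it was called with RLE factors (0.0362), library totals (4.9e-05), without IGFBP5 (0.0246) and with the stricter filter (0.0494), over a range of 4.9e-05 to 0.331. An antisense gene, PRKAR2A-AS1, overlaps 275 bases of its exons with 13 to 40.2 counts a library.

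PRKAR1B (ENSG00000188191, chromosome 7 at 549197 to 727650) encodes RI beta, a type I subunit known mainly from neurons. Levels were 9.55 and 10.7 CPM in fibroblasts, 4.91 and 5.32 CPM on day 2, then 6.84 and 5.84 CPM on day 5. It was highest in the untreated fibroblasts. It was 1.98-fold lower at day 2 (edgeR log2 fold change -0.99 ± 0.14, adjusted p = 1.2e-05) and 1.60-fold lower at day 5 (-0.68 ± 0.15, edgeR adjusted p = 0.00057). The difference between day 2 and day 5, 0.30 ± 0.16, was not called (edgeR adjusted p = 0.103). The counts were 107 to 312 a library. Since the strand setting is not given, reads in the 383 exonic bases it shares with DNAAF5 on the opposite strand, a gene with 370.0 to 755 counts, cannot be assigned with certainty.

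PRKACA (ENSG00000072062, chromosome 19 at 14091688 to 14118084) encodes the main catalytic subunit of most cells, C alpha. Fibroblast libraries held 135 and 132 CPM of it, day 2 libraries 114 and 113 CPM, and day 5 libraries 92.1 and 96.6 CPM. Each day was lower than the one before. The fall was 1.17-fold at day 2 (edgeR log2 fold change -0.23 ± 0.04, adjusted p = 4.4e-05) and 1.41-fold at day 5 (-0.50 ± 0.04, edgeR adjusted p = 6.3e-09). PRKACB (ENSG00000142875, chromosome 1 at 84078062 to 84238498) encodes C beta, which has neural splice forms that counts per gene do not separate. PRKACB stood at 36.1 and 35.8 CPM in fibroblasts, then 58.9 and 56.2 CPM on day 2, then 63.9 and 60.3 CPM on day 5. It rose 1.60-fold by day 2 (edgeR log2 fold change 0.68 ± 0.05, adjusted p = 7.7e-09) and stood 1.72-fold above day 0 at day 5 (0.79 ± 0.06, edgeR adjusted p = 1.4e-09). Its days 2 and 5 did not differ by the test (0.11 ± 0.05, edgeR adjusted p = 0.0855), except with the stricter filter (0.0293), over a range of 0.0293 to 0.432.

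PKIG (ENSG00000168734, chromosome 20 at 44531785 to 44624247) encodes the gamma form of the PKA inhibitor, which blocks the active site of free catalytic subunits and carries them out of the nucleus. PKIG stood at 108 and 116 CPM in fibroblasts, then 78.7 and 78.8 CPM on day 2, then 58.7 and 62.7 CPM on day 5. It fell from day to day, 1.42-fold by day 2 (edgeR log2 fold change -0.50 ± 0.05, adjusted p = 3.9e-08) and 1.84-fold by day 5 (-0.88 ± 0.05, edgeR adjusted p = 5.4e-11). ADA on the opposite strand shares 46 of its exonic bases, with 118 to 235 counts a library. PKIA (ENSG00000171033, chromosome 8 at 78516139 to 78605267) encodes the alpha form, known best from muscle and brain. PKIA stood at 8.80 and 7.15 CPM in fibroblasts, then 9.29 and 9.60 CPM on day 2, then 19.5 and 18.9 CPM on day 5. It differed from PKIG in direction and in time, with its change in the later interval. PKIA was 2.42-fold higher at day 5 than at day 0 (edgeR log2 fold change 1.27 ± 0.12, adjusted p = 5.3e-08) and 2.03-fold higher than at day 2 (1.02 ± 0.12, edgeR adjusted p = 8.4e-07).

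At day 2 PKIA was not called (0.25 ± 0.13, edgeR adjusted p = 0.089), except without day 0 replicate 1 (0.0275), over a range of 0.0275 to 0.663. Its change over 2-fold at day 5 against day 0 (glmTreat adjusted p = 0.0249) was lost with library totals (0.424), with no count filter (0.0898), and without day 0 replicate 2 (0.315) or either day 5 library (0.0882 and 0.0522), and ran from 0.00818 to 0.424.

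RAPGEF3 (ENSG00000079337, chromosome 12 at 47734367 to 47771040) encodes EPAC1, the exchange factor found in many tissues, and RAPGEF4 (ENSG00000091428, chromosome 2 at 172735274 to 173052893) encodes EPAC2, found mainly in brain and endocrine cells. Both were scarce, with 38 to 179 and 24 to 215 counts a library. RAPGEF3 stood at 5.40 and 6.15 CPM in fibroblasts, then 3.41 and 2.86 CPM on day 2, then 2.28 and 2.62 CPM on day 5. It was highest in fibroblasts. It was 1.85-fold lower at day 2 (edgeR log2 fold change -0.88 ± 0.19, adjusted p = 0.00061) and 2.35-fold lower at day 5 (-1.24 ± 0.21, edgeR adjusted p = 5.2e-05), and its days 2 and 5 did not differ by the test (edgeR adjusted p = 0.177). The antisense gene AC004241.1 shares 1836 of its exonic bases with 6 to 13.1 counts a library. SLC48A1 on the opposite strand shares 83 bases and also fell, from 533 and 629 counts at day 0 to 268 and 327 at day 2. At day 5 SLC48A1 had 132 and 111 counts. Without a known strand setting, reads in these shared bases cannot be assigned with certainty.

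RAPGEF4 stood at 2.998 and 3.13 CPM in fibroblasts, then 7.95 and 7.999 CPM on day 2, then 1.92 and 1.31 CPM on day 5. Its level peaked at day 2 and was lowest at day 5, a course no other member had. It rose 2.60-fold by day 2 (edgeR log2 fold change 1.38 ± 0.18, adjusted p = 4.1e-06) and then dropped 4.96-fold (-2.31 ± 0.22, edgeR adjusted p = 5.6e-08), to 1.91-fold under day 0 (-0.93 ± 0.24, edgeR adjusted p = 0.0022). The drop passed the test for more than 2-fold (glmTreat adjusted p = 2.2e-05). The rise did not (0.0562), but passed when only days 0 and 2 were fitted (0.0277) and without either day 5 library (0.0366 and 0.0354), and ran from 0.0277 to 0.292. RAPGEF3 at day 5 missed that test too (0.197), and passed it with library totals (0.0336).

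**Figure D2:**
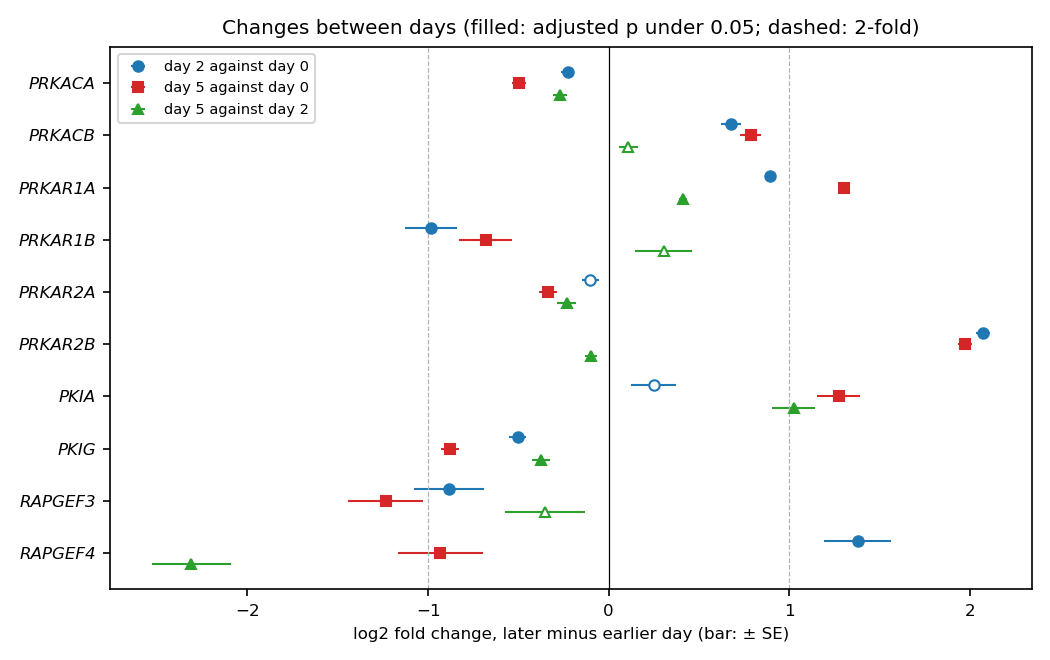
Log2 fold change of each member (horizontal axis, later minus earlier day, bars ± SE) for the 3 comparisons, with filled symbols for an adjusted p under 0.05 and dashed lines at 2-fold. PRKAR2B lies near 2 for both comparisons with day 0, and RAPGEF4 is the only member on opposite sides of 0 at day 2 and at day 5 against day 0.

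To set genes side by side, CPM was divided by the length of all annotated exons of a gene in GENCODE release 29. The 4 regulatory genes summed to 69.7 and 68.1 CPM per kb in fibroblasts, 141 and 139 on day 2, then 163 and 162 on day 5. The 2 catalytic genes summed to 27.3 and 26.8 CPM per kb in fibroblasts, 27.4 and 26.8 on day 2, then 24.5 and 24.7 on day 5. The ratio of regulatory to catalytic mRNA per length was thus 2.56 and 2.54 in fibroblasts, 5.16 and 5.18 on day 2, then 6.68 and 6.57 on day 5, a quantity that no scaling between libraries can change. It rose between all days with no overlap. With the longest transcript as the length the day means were 1.93, 3.96 and 5.31, with the deposited gene lengths 3.74, 6.99 and 9.67, and with no length 2.58, 4.88 and 6.39. These ratios were not tested, since an exact two-sided permutation test of 2 libraries against 2 cannot go below p = 0.333, and mRNA ratios say nothing of protein.

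Within the regulatory genes, PRKAR2B took 15.7 and 15.6% of the level per length in fibroblasts, 32.7 and 32.1% on day 2, then 25.8 and 26.2% on day 5. PRKAR2A went from 16.1 and 16.2% to 7.51 and 7.33% and then 5.21 and 5.62%. PRKAR1A held most of the level on each day, with 65.1 and 64.7%, 59.0 and 59.7%, and 68.0 and 67.4%. The 2 type II genes thus stood level at day 0 by this length and far apart later. With the deposited lengths they did not stand level at day 0, when PRKAR2A held 18.6% and PRKAR2B 5.87%. By those lengths PRKAR2B stood above PRKAR2A at day 2 (13.8 against 9.69%) and at day 5 (10.5 against 6.71%), with a smaller gap than at day 0. The direction of the type I share between day 0 and day 2 depended on the length: it went from 68.2 to 60.2% with exon length and from 75.5 to 76.5% with deposited lengths.

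Within the catalytic genes, PRKACB took 19.7 and 19.9% in fibroblasts, 31.97 and 31.2% on day 2, then 38.8 and 36.3% on day 5. PKIA took 4.61 and 3.53% of the inhibitor level at day 0 and 16.4 and 15.2% at day 5. Inhibitor to catalytic mRNA per length went from a mean of 1.73 ± 0.0951 at day 0 to 1.25 ± 0.0235 at day 2 and 1.17 ± 0.0362 at day 5 (SD, n = 2). With no length the means were 0.707, 0.515 and 0.511, below 1 and with overlapping libraries on days 2 and 5, so only the step from day 0 to the later days held under every length setting. EPAC mRNA was scarce beside regulatory mRNA, at ratios of 0.0132, 0.00986 and 0.00264. RAPGEF4 took 48.4 and 46.3% of EPAC mRNA in fibroblasts, 79.8 and 82.5% on day 2, then 58.8 and 45.9% on day 5, where the 2 libraries lay far apart at these counts.

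Ordered by level per length at day 0, PRKAR1A (44.8 CPM per kb) and PKIG (44.7) came first with overlapping libraries, followed by PRKACA (21.7), PRKAR2A (11.1), PRKAR2B (10.8), PRKACB (5.35), PRKAR1B (2.26), PKIA (1.89), RAPGEF3 (0.478) and RAPGEF4 (0.430). By day 2 PRKAR2B (45.4) had passed PKIG (31.6) by exon length, and at day 5 PRKAR1A stood at 110.3. That passing depended on the length. With the longest transcript PRKAR2B and PKIG stood at 52.3 and 52.9 on day 2, and at 48.8 and 40.8 on day 5. With the deposited lengths PRKAR2B stayed below PKIG, at 53.1 against 68.3 on day 2 and 49.5 against 52.6 on day 5. With the longest transcript as the length PKIG came first on day 0, at 74.96 CPM per kb against 70.5 for PRKAR1A. Libraries also overlapped for PRKAR1B (1.14) and RAPGEF4 (1.12) on day 2, and on day 5 for PRKACB (9.23) and PRKAR2A (8.82) and for RAPGEF4 (0.226) and RAPGEF3 (0.203). Other neighbours in the order of a day had no overlapping libraries.

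**Figure D3:**
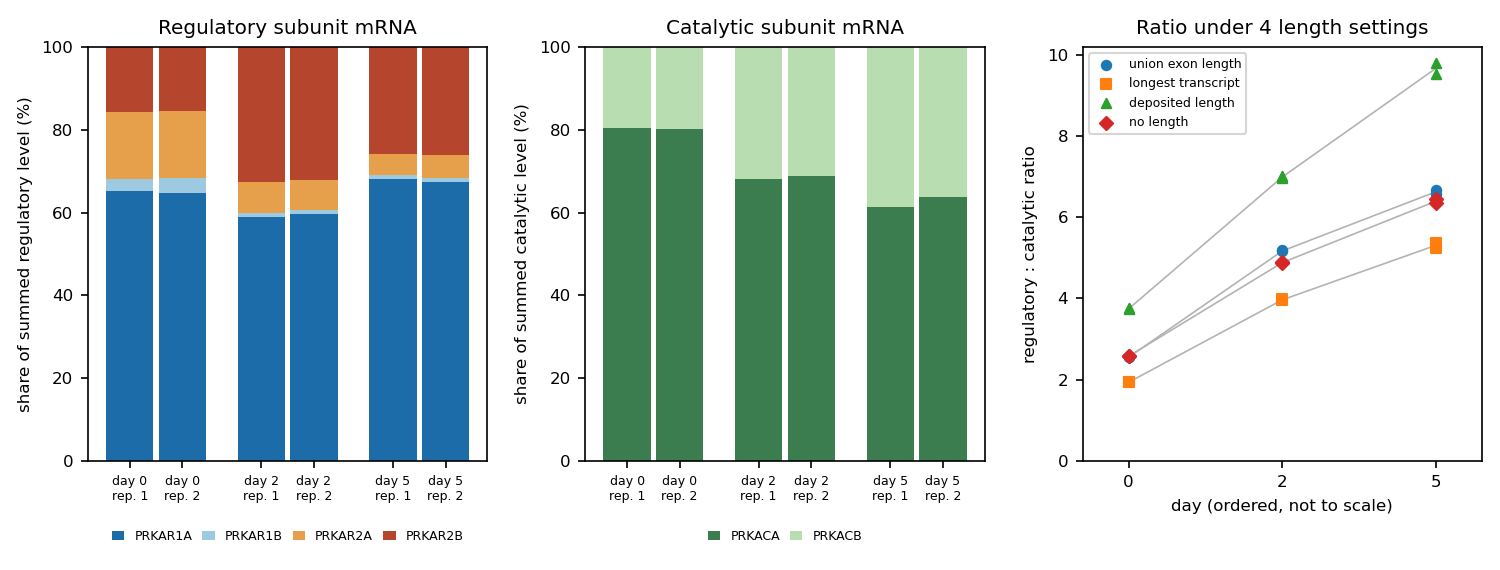
Share of each regulatory gene (left) and catalytic gene (middle) in the summed level per exon length, in percent, for each of the 6 libraries, and the ratio of regulatory to catalytic mRNA by day under 4 length settings (right, points for libraries, lines through day means). The PRKAR2B share rises from near 16% to near 32% at day 2, and the ratio rises from day to day under all 4 settings.

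The partners of PKA and EPAC changed in both directions. Their counts are to be read against the shares of all tested genes: 33.4% higher with 33.4% lower for the first interval (day 0 to 2), 35.8% with 34.1% for the whole course, 32.1% with 33.7% for the second interval (day 2 to 5). Of 21 tested AKAPs of 27 listed, 10 were higher and 7 lower at day 2 against day 0 (median log2 fold change 0.11), with a median of -0.07 by library totals. At day 5 against day 0, 10 were higher and 6 lower (0.24, or 7 and 7 with a median of 0.04 by library totals). Between day 2 and day 5, 7 rose and 10 fell. AKAP12, a scaffold also called gravin, held 16.2 and 17.3 CPM in fibroblasts, 117 in both day 2 libraries, then 469 and 468 on day 5. That was 27.9-fold over day 0 at day 5 (edgeR log2 fold change 4.80 ± 0.04, adjusted p = 1.7e-22). PALM2AKAP2 went the other way, from 952 and 961 CPM to 285 and 280 and then 157 in both libraries, 6.10-fold lower at day 5 (-2.61 ± 0.02, edgeR adjusted p = 7.7e-22). EZR, which encodes ezrin, a linker of membrane and actin that also anchors PKA, fell 3.72-fold by day 2 and 4.16-fold by day 5. AKAP13, a further anchoring protein, was 2.10-fold higher at day 5. AKAP5, an anchor of neuronal synapses, was near the detection limit on every day, with means of 0.435, 0.234 and 0.516 CPM, and was not called.

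Among Rap GTPases and their regulators, 10 of 20 tested genes rose and 7 fell at day 2, and 7 rose and 6 fell at day 5 against day 0. Between the later days 5 rose and 12 fell. The medians were 0.39, -0.05 and -0.29. By library totals the numbers were 10 and 9 at day 2 and 6 and 12 at day 5, with medians of 0.20 and -0.26. RAP1B, a Rap GTPase that EPAC loads, went from 80.7 CPM at day 0 to 110.3 at day 2 and 70.7 at day 5, called in every comparison. RAP1A went from 42.6 to 54.9 and 39.8 CPM, and its day 5 level did not differ from day 0 by the test (edgeR adjusted p = 0.181, or 0.000405 by library totals). Both thus peaked at day 2, as RAPGEF4 did. AFDN, a Rap effector at cell junctions, rose 2.24-fold by day 2 and stood 2.06-fold over day 0 at day 5. RAPGEF1, a Rap exchange factor that does not bind cAMP, fell 3.32-fold by day 5, SIPA1, which switches Rap off, fell 1.52-fold, and the chaperone-like RAP1GDS1 fell 2.15-fold.

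Of the other cAMP-binding effectors, 13 were in the table and 4 had enough counts to be tested. At day 2, 1 was called, the Popeye gene BVES, 1.39-fold higher, where 33.4% of all tested genes were called higher. At day 5 against day 0, 3 were lower, where 34.1% of all tested genes were. POPDC3, also a Popeye gene, encoding a membrane protein that binds cAMP, went from 21.1 and 18.2 CPM in fibroblasts to 20.2 and 20.8 on day 2, then 2.88 and 2.73 on day 5, 6.98-fold lower than at day 0. BVES was 2.301-fold and HCN2, a cyclic nucleotide-gated pacemaker channel, 2.80-fold lower at day 5. PJA2, a ubiquitin ligase known to degrade PKA regulatory subunits, went from 64.3 and 60.7 CPM in fibroblasts to 163 and 166 on day 2, then 90.3 and 88.2 on day 5. It was 2.64-fold over day 0 on day 2 and 1.43-fold on day 5, with its highest level on day 2. PRKAR2B was also highest on day 2 and PRKAR1A on day 5, and no relation between PJA2 and either gene was tested. The list drawn up for turnover of PKA subunits held 5 tested genes. Of these, 2 rose and 1 fell at day 2 and 1 rose and 2 fell at day 5 (1 and 3 by library totals). Degradation of PKA subunits is named here for PJA2 alone, so these counts do not measure turnover of PKA. Also on that list, MYCBP, which binds AKAPs, and KCTD5, an adaptor of the ubiquitin ligase CUL3, were 2.202-fold and 1.502-fold lower at day 5.

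Of the remaining PKA genes, the catalytic PRKACG had 0 counts in all 6 libraries, where 3 counts correspond to 0.103 to 0.180 CPM. PRKX, a kinase related to the catalytic subunits, was 1.44-fold higher at day 2 (edgeR adjusted p = 6.4e-05) and did not differ from day 0 by the test at day 5 (0.274). PRKY, of the same list, went the other way at day 2, 1.18-fold lower (edgeR adjusted p = 0.0149), and was not called at day 5 against day 0 (0.467). PKIB, the beta inhibitor, was near the detection limit, with 32 counts in fibroblasts and 2 on day 5. Scaled to depth the ratio was 10.3, with a 95% exact interval from 2.62 to 88.6 for counting error only, and the fall was called (edgeR adjusted p = 0.0148).

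**Figure D4:**
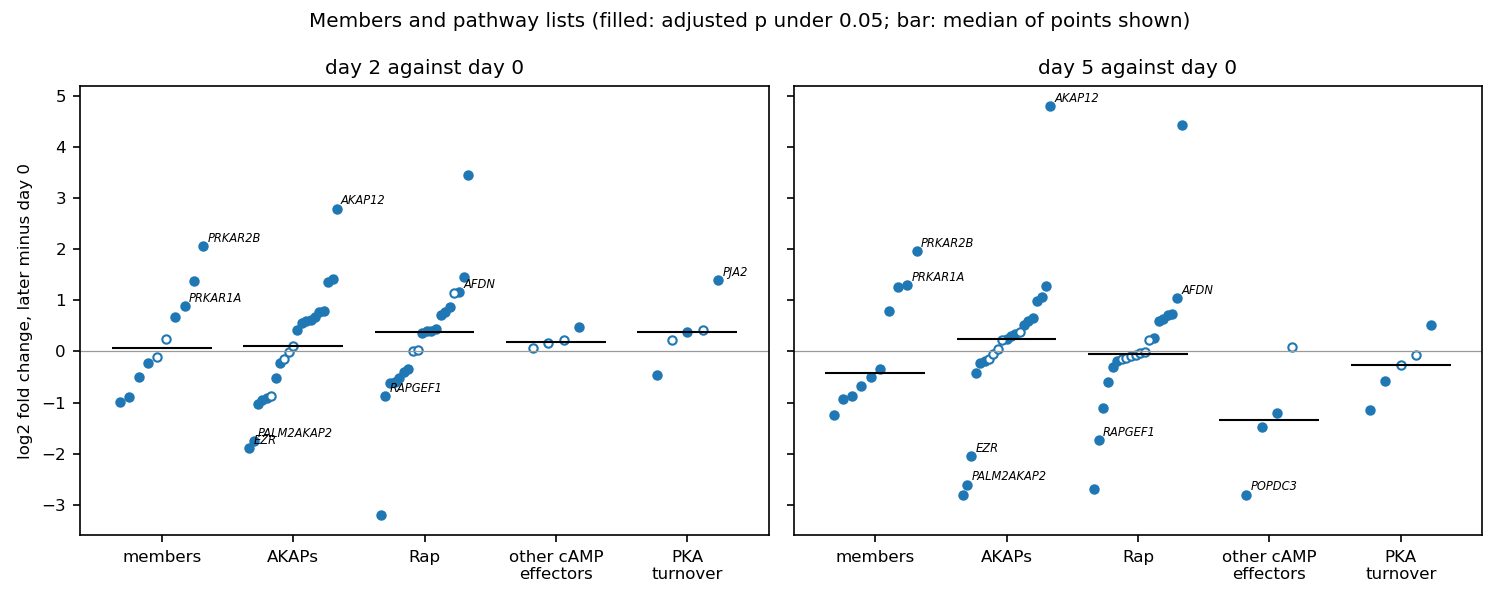
Log2 fold change against day 0 (vertical axis) of the members and of the tested genes of 4 pathway lists at day 2 (left) and day 5 (right), with filled points for an adjusted p under 0.05 and a bar at each median. Points of the AKAP and Rap lists lie on both sides of 0, with AKAP12 at 2.80 and 4.80.

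For PRKAR2B and PRKAR1A, the 2 members with the largest range between days among those with a mean of at least 5 CPM (RAPGEF4, with a wider range, is below it), genes of the most similar course were sought among 10621 genes of at least 5 CPM, by the distance between their pairs of log2 fold changes at day 2 and day 5 against day 0. Nearest to PRKAR2B were SLC19A2, a thiamine transporter (2.11 and 1.89), HSF4, a heat shock factor (1.98 and 2.00), and ARHGAP28 (2.12 and 1.89), at distances of 0.0863, 0.0973 and 0.0977. Nearest to PRKAR1A were DRICH1 (0.90 and 1.31), PROCR, the protein C receptor (0.88 and 1.32), and NEDD4L, a ubiquitin ligase (0.87 and 1.29), at distances of 0.0141, 0.0190 and 0.0286. Within a distance of 0.25 lay 17 genes for PRKAR2B and 113 for PRKAR1A. The likeness rests on 3 day means of the same 6 libraries and is a description.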

How the data were processed

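RNA was measured in 6 libraries made with an Illumina TruSeq kit from TRIzol-extracted, DNase-treated total RNA, per the labels' protocols. The deposited values are expected counts per gene (estimated counts, not scaled between libraries), per the file headers and the values, 87.2% of them whole. GRCh38 is named in the submitters' processing notes. The aligner, counter, annotation release and strand setting are not given in the sources used here. Lengths in bases beside the counts are as deposited by the authors.

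Of 60843 genes, 172 without a name (0.0356 to 0.0475% of a library) were left out. For 76 symbols shared by several genes the one of highest mean count kept the symbol. Rounded counts were fitted by day with the quasi-likelihood test of edgeR (4.0.16, under R 4.3.3) after filterByExpr (minimum count 10, total 15) and TMM scaling, with 3 residual degrees of freedom. P-values are two-sided and Benjamini-Hochberg adjusted over 16327 genes, with calls under 0.05. The SE is the log2 fold change over the square root of F. For changes above 2-fold, glmTreat was run at a log2 fold change of 1.

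The alternatives were DESeq2 1.42.0, limma-voom (limma 3.58.1), RLE factors, library totals, leaving out IGFBP5, no filter, a stricter filter (1 CPM in 4 libraries), fits of 2 days, the replicate number as a block, leaving out each library, and other gene lengths. The deposited lengths were added after seeing the data. The test code was run on counts simulated from the fitted means and spread of these libraries, with few genes changed. Most genes were called in the data, so that run cannot give the error rates of these calls. Members and lists were chosen with earlier results of these data known. All members were named, with up to 4 genes of lowest adjusted p at day 5 against day 0 from each list (at least 5 CPM), plus PKIB, PRKX, AKAP12, AKAP5, RAP1A and RAP1B whatever their result. PRKACG and PRKY were named to complete their list.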

Additional observations from a re-analysis of the deposited data

How the results depend on the processing

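No direction of a called member reversed under any alternative run. In alternatives that left out no library, 8 or 9 of 10 members were called at day 2 against day 0. At day 5 the number was 10 against day 0 and 7 against day 2. With 1 library left out the number did not stay the same in every fit. Of 450 single values, 4 lost and 6 gained a call, and 440 kept their side of the threshold. The changed ones concern PRKAR2B and PRKACB between day 2 and day 5, and PRKAR2A and PKIA at day 2. The number of members changed over 2-fold at day 2 against day 0 was 1, but 2 when only these days were fitted, and 1 to 2 when 1 library was left out. Same-numbered libraries of different days did not deviate together (correlations across genes of 0.0027, -0.0024 and -0.0050). Counting noise also lowers such correlations, so they cannot decide whether same-numbered libraries share an origin. With the replicate block 8, 10 and 7 members were called, as without it, and 10806, 11297 and 10642 of all genes against 10912, 11405 and 10746. Of 126 shares and ratios under other gene lengths, 120 moved by more than the SD between libraries, but the regulatory to catalytic ratio rose from day to day under all 4 length settings. The libraries of a day differed beyond counting noise (chi-square per degree of freedom of 2.29 to 2.42), so none was a copy. Depth limits RAPGEF3, RAPGEF4 and PRKAR1B most, since day 5 was shallowest.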
